A study of Arabidopsis thaliana with 6 samples.

Results

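Transposable elements (TEs) of chromosome 4 of Arabidopsis thaliana were taken as the 4967 entries of a read count table whose names begin with AT4TE, out of 31189 TE entries and 62524 entries in all. Messenger RNA was compared between leaves of ddcc plants, labelled as drm1drm2cmt2cmt3 mutants, and of wild-type (WT) plants, all of the Col-0 background and 28 days old. Plants of both genotypes grew on soil at 21 °C with 16 h of light and 8 h of darkness, after 48 h at 4 °C as seeds. Each genotype had 3 libraries of polyadenylated RNA. The labels do not name the mutant alleles or say whether the libraries came from separate plants, so p-values measure the spread between these libraries, which may be technical. The 5 digits of each name are the element's identifier number, which runs along the chromosome. It is used here only for order and is not a distance in bases.

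TEs are DNA sequences that can move or copy themselves, and plants keep most of them silent by methylating their cytosines. Cytosines in CG sites are kept methylated by the maintenance enzyme MET1. Cytosines in other contexts depend on DRM2, which is guided by small RNAs, and on CMT2 and CMT3, which bind histone H3 methylated at lysine 9, and these are the enzymes affected in ddcc together with DRM1, a close relative of DRM2. Chromosome 4 of Col-0 has a short arm with a heterochromatic knob and a TE-rich region around the centromere, and its long arm is richer in genes.

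The libraries held 17265251 to 18809306 counts in ddcc and 15188586 to 17644256 in WT. Among the mutated genes, 3 checked the labels. In reads scaled to library size (CPM, counts per 10 to the power of 6), DRM2 stood at 8.14 ± 0.375 in ddcc and 17.98 ± 0.517 in WT, CMT3 at 2.98 ± 0.498 in ddcc and 9.63 ± 0.622 in WT, and CMT2 at 11.1 ± 0.442 in ddcc and 15.3 ± 0.911 in WT (SD, n = 3 each). All 3 were lower in ddcc but kept reads. DRM1 had at most 1 count in any library and checked nothing. The 4 leaf markers RBCS1A, RCA, LHCB1.3 and CA1 summed to between 51819 and 53681 CPM in ddcc and between 54510 and 58551 CPM in WT, while markers of root, flower and seed reached at most 6 counts in any library and the root marker EXPA7 stood at 0. The part of the lower leaf marker sum in the results was not tested.

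More chromosome 4 TEs gave a read in ddcc than in WT. Of the 4967 elements, 275, 270 and 268 had at least 1 count in the ddcc libraries, against 157, 161 and 138 in the WT libraries. Each ddcc library lay above every WT library. In whole leaves, more RNA per cell and more cells of a type cannot be told apart. The means were 271 ± 3.61 in ddcc and 152 ± 12.3 in WT (SD, n = 3 each), a ratio of 1.78. A two-sided exact permutation test of 3 libraries against 3 can go no lower than p 0.1, and that was its value. Depth was higher in ddcc, and after every library was thinned to 15188586 counts the numbers were 255 ± 3.0 in ddcc and 144 ± 7.77 in WT.

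Most elements had no count at this depth in either genotype. How reads shared between TE copies were counted is not given, so a count of 0 does not show that an element is not transcribed. No library held a count for 4460 elements (89.8%), and 507 (10.2%) had a count somewhere. Of these, 261 had counts in ddcc libraries only, 92 in WT libraries only and 154 in both. For 216 elements the counts came from a single library. Elements with counts in all 3 libraries of a genotype and none in the other numbered 68 for ddcc and 13 for WT, or 62 for ddcc and 12 for WT after thinning. A count of 0 in a library allows up to 3 counts, which equalled 0.156 to 0.172 CPM in ddcc and 0.175 to 0.197 CPM in WT.

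The reads of chromosome 4 TEs as a whole differed by a smaller ratio than the number of elements with reads. They made up 0.0505%, 0.0412% and 0.0380% of all counts in the ddcc libraries and 0.0355%, 0.0348% and 0.0336% in the WT libraries. The lowest ddcc library lay above the highest WT library. Counting error was small beside the spread between ddcc libraries, with 95% Wilson intervals of 0.0495% to 0.0515% in ddcc replicate 1 and 0.0371% to 0.0389% in ddcc replicate 3. In WT it was not, since the intervals of replicate 1 (0.0347% to 0.0364%) and replicate 2 (0.0339% to 0.0357%) overlapped. The means of 0.0432% ± 0.00648 in ddcc and 0.0346% ± 0.000978 in WT (SD, n = 3 each) had a ratio of 1.25 (exact permutation p 0.1). Replicate 1 of ddcc set much of this gap, since without it the difference was 0.00498 in place of 0.00860 percentage points.

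**Figure D1:**
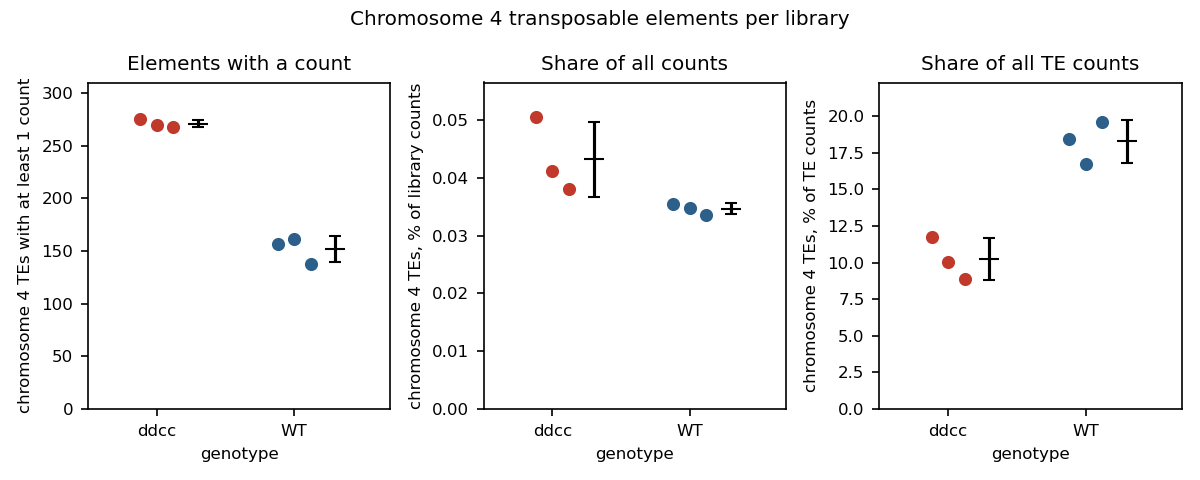
Number of chromosome 4 TEs with at least 1 count (left), their share of all library counts in percent (middle) and their share of all TE counts in percent (right), with 1 point per library and the mean and SD (n = 3) beside the points. The ddcc libraries lie above the WT libraries in the first pair of panels and below them in the right panel.

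Each feature with enough reads was then tested with the quasi-likelihood F test of edgeR on the whole table, genes included, with the threshold for a call at an adjusted p of 0.05. Of the 4967 elements, 58 passed the filter on low counts (about 10 counts, scaled to library size, in at least 3 of the 6 libraries). Among these, 26 were higher and 11 were lower in ddcc, against 15.5% higher and 12.7% lower among all 18498 tested features. The median log2 fold change of the 58 elements was 0.21, and that of all tested features was −0.003. The filter shapes these counts. An element without reads in 1 genotype passed it only through reads in the other and then had to differ. The CPM values of the genotypes did not overlap for the 37 called elements and overlapped for the 21 others; they did not overlap for 43.5% of all tested features.

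Of the 26 elements that were higher, 19 had at most 3 counts in each WT library and are called gained here. Of the 11 that were lower, 3 had at most 3 counts in each ddcc library and are called lost. The remaining 7 higher and 8 lower elements had reads in both genotypes. Copies of 1 TE family can share reads, and how such reads were counted is not given in the sources used here, so every assignment to a single element is uncertain. Reads of a gene that overlaps an element can also count for it.

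**Figure D2:**
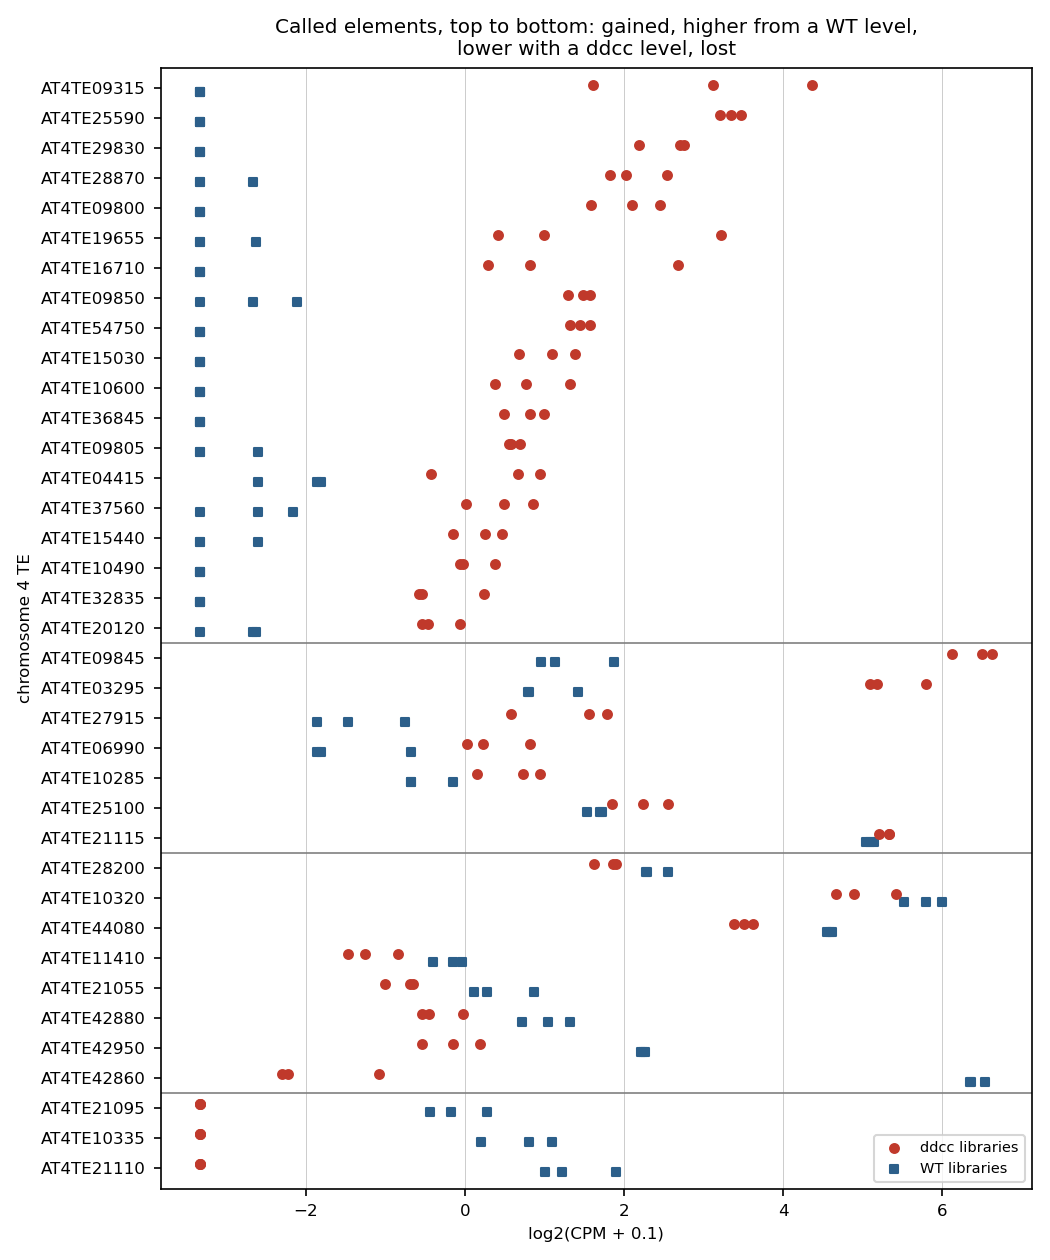
The 37 called chromosome 4 TEs, with 1 point per library on the scale log2(CPM + 0.1) and horizontal lines between the 4 classes. Gained elements (19) have WT points at or near the left edge, which is 0 CPM, and the 3 lost elements at the bottom have their ddcc points there.

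The gained elements had 0 counts in all WT libraries in 11 of 19 cases. AT4TE25590 had 193, 159 and 206 counts in ddcc and 0 in each WT library. It was at least 54.2-fold higher in ddcc (edgeR adjusted p 4.85e-07), where "at least" sets each WT library to 3 counts. AT4TE29830 had 127, 78 and 120 counts in ddcc and none in WT, at least 31.4-fold higher (edgeR adjusted p 7.86e-06). For both elements the ddcc libraries lay close together and WT was silent. AT4TE09800 had 103, 73 and 54 counts in ddcc and none in WT, at least 22.3-fold higher (edgeR adjusted p 3.97e-05). AT4TE54750 had 55, 46 and 45 counts in ddcc and none in WT, at least 14.2-fold higher (edgeR adjusted p 1.94e-05). Its identifier number is the highest of any called element.

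A few gained elements had a trace of reads in WT. AT4TE28870 had 66, 100 and 74 counts in ddcc against 1, 0 and 0 in WT, a ratio of 211 whose 95% interval of 37.4 to 8354 covers counting error only (edgeR adjusted p 6.09e-06). Without WT replicate 1, which held the single WT read, it was at least 22.9-fold higher, and with another library left out the ratio ran from 140.3 (without WT replicate 2) to 234. AT4TE09850 had 55, 47 and 44 counts in ddcc against 1, 0 and 2 in WT, a ratio of 42.7 (14.3 to 210, edgeR adjusted p 1.60e-05), or between 28.4 without WT replicate 2 and 88.0 without WT replicate 3. The other 10 gained elements, each with a mean under 20 counts, had between 11 and 44 counts per ddcc library and at most 3 in any WT library, and those of them with no WT count were at least 4.04-fold to 10.9-fold higher.

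Another 3 gained elements differed widely between the ddcc libraries. AT4TE09315 had 391, 150 and 55 counts in ddcc replicates 1, 2 and 3 and 0 in WT. AT4TE16710 had 121, 29 and 21 counts in ddcc and 0 in WT. AT4TE19655 had 177, 33 and 23 counts in ddcc and 0, 1 and 0 in WT. In all 3 elements ddcc replicate 1 was the highest library, 5.61 to 7.50 times the lowest ddcc library in CPM. The fold of AT4TE09315 was at least 57.3 (edgeR adjusted p 0.00198), or at least 31.0 without ddcc replicate 1. That of AT4TE16710 was at least 16.3 (edgeR adjusted p 0.00429), or at least 7.49 without it. AT4TE19655 had a ratio of 204 (36.3 to 8111, edgeR adjusted p 0.00312), or 75.2 (12.96 to 3023) without ddcc replicate 1 and 132 without WT replicate 1. The ratio rests on a single WT read, and without WT replicate 2, which held it, the element was at least 22.1-fold higher. The calls of these 3 elements were lost with robust dispersion estimation, at edgeR adjusted p-values of 0.168, 0.182 and 0.0744.

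High values in ddcc replicate 1 were common among the chromosome 4 TEs. It was the highest ddcc library in CPM for 30 of the 55 tested elements that had a count in ddcc, for 42.5% of all such TEs and for 32.8% of all such features. Its part in the results was not tested beyond leaving it out. Without it, 26 elements were higher and 14 lower, and 24 and 10 of these were among the 26 and 11 named above.

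The 7 elements that were higher from a WT level included the one with the largest gain in reads. AT4TE09845 had 1895, 1574 and 1293 counts in ddcc and 61, 34 and 28 in WT. Its level was 86.0 ± 15.2 CPM in ddcc and 2.50 ± 0.927 CPM in WT, and the test gave a log2 fold change of 5.09 with an SE of 0.20 (edgeR adjusted p 4.51e-08). AT4TE03295 had 1065, 630 and 636 counts in ddcc and 28, 42 and 25 in WT, a log2 fold change of 4.42 with an SE of 0.24 (edgeR adjusted p 5.74e-07). Neither element was silent in WT, and in both the groups stood far apart. AT4TE27915 rose with 64, 50 and 26 counts in ddcc against 3, 8 and 4 in WT (log2 fold change 3.0, SE 0.45, edgeR adjusted p 6.96e-04). AT4TE06990 and AT4TE10285 had log2 fold changes of 2.06 and 1.24 (edgeR adjusted p 0.00610 and 0.0160). The change of AT4TE06990 was 2.72 without WT replicate 3, which held 8 of its WT counts against 3 in each other WT library.

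A small increase was called for AT4TE25100 and AT4TE21115. AT4TE25100 had 111, 61 and 86 counts in ddcc and 48, 52 and 48 in WT (log2 fold change 0.60, edgeR adjusted p 0.0414). AT4TE21115 had 769, 644 and 747 counts in ddcc and 563, 570 and 516 in WT (log2 fold change 0.20, edgeR adjusted p 0.0361). Both calls were lost under DESeq2, under the replicate block and in 5 of the 6 fits that left out 1 library. The call of AT4TE10285 was lost without WT replicate 1 or 3, at edgeR adjusted p-values of 0.0638 and 0.0616.

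Among the 11 elements that were lower, AT4TE42860 had the greatest fall in reads. It had 2, 2 and 7 counts in ddcc and 1583, 1314 and 1251 in WT, or 0.198 ± 0.153 CPM and 85.2 ± 6.24 CPM (SD, n = 3 each). The fitted log2 fold change was −8.69 (edgeR adjusted p 3.01e-10), with no SE given because it rests on few ddcc reads. It was −9.51 without ddcc replicate 3, which held the most ddcc counts. In that fit at most 2 counts were left in each ddcc library, so AT4TE42860 met the definition of a lost element. In WT this element alone took up about as many reads as AT4TE09845 did in ddcc. Without AT4TE42860, an alternative chosen after its values were seen, chromosome 4 TEs made up 0.0432% ± 0.00649 of counts in ddcc and 0.0262% ± 0.000764 in WT, a ratio of 1.65.

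The other elements that were lower but kept reads in ddcc changed less. AT4TE42950 had 20, 14 and 11 counts in ddcc and 78, 76 and 70 in WT (log2 fold change −2.49, SE 0.21, edgeR adjusted p 1.60e-05). AT4TE42880 had 17, 11 and 11 counts in ddcc and 41, 25 and 30 in WT (log2 fold change −1.48, SE 0.28, edgeR adjusted p 0.00290). AT4TE44080 had 234, 180 and 210 counts in ddcc and 400, 390 and 371 in WT (log2 fold change −1.09, SE 0.08, edgeR adjusted p 5.74e-06). These elements have the highest identifier numbers of any that fell, together with AT4TE42860.

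Smaller decreases were called for 4 more elements. AT4TE10320 had 817, 517 and 472 counts in ddcc and 1088, 902 and 697 in WT (log2 fold change −0.76, SE 0.17, edgeR adjusted p 0.00729). AT4TE28200 had 68, 52 and 68 counts in ddcc and 99, 77 and 73 in WT (log2 fold change −0.59, SE 0.15, edgeR adjusted p 0.0147). AT4TE21055 and AT4TE11410 had log2 fold changes of −1.37 and −1.17 (edgeR adjusted p 0.0102 and 0.0310). Robust dispersion ended the call of AT4TE10320 (edgeR adjusted p 0.0966), leaving out WT replicate 1 that of AT4TE28200 (0.0673) and leaving out WT replicate 2 that of AT4TE21055 (0.0523). AT4TE11410 kept its direction but lost its call in 8 of 13 alternatives, with edgeR adjusted p-values up to 0.111 and a DESeq2 adjusted p of 0.182.

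The 3 lost elements had no count in any ddcc library. AT4TE21110 had 62, 31 and 34 counts in WT and was at least 15.9-fold lower in ddcc (edgeR adjusted p 9.15e-05). AT4TE10335 had 35, 17 and 25 counts in WT and was at least 9.69-fold lower (edgeR adjusted p 1.99e-04). AT4TE21095 had 11, 18 and 12 counts in WT and was at least 5.20-fold lower (edgeR adjusted p 5.58e-04).

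Some called elements stood near each other by identifier number. When called elements whose numbers differ by at most 25 were joined, 11 of the 37 fell into 5 groups and 26 stood alone. AT4TE09800 with AT4TE09805, and AT4TE09845 with AT4TE09850, were higher in ddcc. AT4TE10320 with AT4TE10335, and AT4TE42860 with AT4TE42880, were lower. The fifth group held the lost elements AT4TE21095 and AT4TE21110 beside AT4TE21115, which was higher by 0.20 on the log2 scale. With a largest step of 10 there were 3 groups, and with 50 there were 4.

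Elements too weakly expressed to be tested filled in the stretch that ends at AT4TE21110. The 8 entries from AT4TE21070 to AT4TE21110 had 0 counts in each ddcc library and together 102, 84 and 73 counts in WT. Of these 8, 7 had a count in every WT library and 1 (AT4TE21080) had none anywhere. AT4TE21085 had 14, 11 and 5 counts in WT and AT4TE21100 had 7, 13 and 13. AT4TE21070, AT4TE21075 and AT4TE21090 had between 1 and 8 counts in each WT library. They made up 7 of the 13 elements with reads in all WT libraries and in no ddcc library. The stretch as a whole was at least 32.6-fold lower in ddcc, with each ddcc library set to 3 counts, a value given with no test because the stretch was chosen after its values were seen. On its low side AT4TE21055 kept 10, 7 and 10 counts in ddcc against 19, 28 and 15 in WT, and on its high side AT4TE21115 kept reads in all libraries. The table does not show whether the sequence itself is present in the ddcc plants, so loss of transcription and loss of the elements cannot be told apart.

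**Figure D3:**
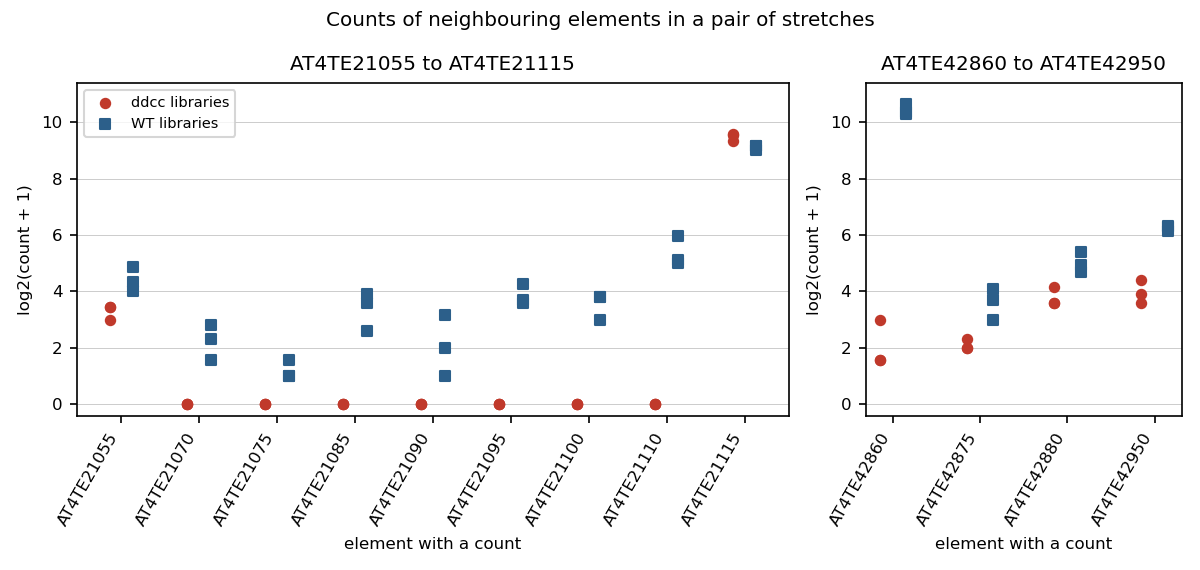
Counts of the elements with a read from AT4TE21055 to AT4TE21115 (left) and from AT4TE42860 to AT4TE42950 (right), as log2(count + 1), with 1 point per library. Between AT4TE21070 and AT4TE21110 all ddcc points lie at 0, while in the right panel the ddcc points lie below the WT points but above 0.

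A second stretch of elements that were lower, also chosen after its values were seen, ran from AT4TE42860 to AT4TE42950. Of its 9 entries, 5 had no count in any library. The other 4 together held 42, 30 and 33 counts in ddcc and 1709, 1427 and 1367 in WT. Most of these WT counts were those of AT4TE42860. AT4TE42875, which was not tested, had 3, 3 and 4 counts in ddcc and 7, 12 and 16 in WT. Unlike the stretch that ends at AT4TE21110, each of these 4 elements kept at least 2 counts in each ddcc library.

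Elements that were higher in ddcc also stood in a stretch, chosen after its values were seen. The 16 entries from AT4TE09780 to AT4TE09865 held 2120, 1752 and 1437 counts in ddcc and 63, 34 and 31 in WT. AT4TE09845 held most of these reads in both genotypes. Of the 13 entries with a count, 9 had none in WT, and 4 were tested and called higher. Of the untested ones, AT4TE09810 had 16, 20 and 7 counts in ddcc and none in WT, and AT4TE09795 had 6, 8 and 6 in ddcc and none in WT. AT4TE09315 lies earlier in the same part of the numbering, and from AT4TE09210 to AT4TE09900 there were 110 entries, 32 of them with a count and 22 of those with counts in ddcc only. In that range AT4TE09225 was expressed alike, with 55, 67 and 74 counts in ddcc and 56, 68 and 51 in WT (log2 fold change −0.02, SE 0.18, edgeR adjusted p 0.940).

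Elements expressed in both genotypes were defined as those with at least 10 counts in each of the 6 libraries, and there were 25. Of these, 4 were higher, 5 were lower and 16 did not pass the test. Among all tested features, 15.5% were higher and 12.7% were lower, so 4 of 25 is near the first share. Over all 6 libraries together, AT4TE50435 took the most counts of any chromosome 4 TE, with 1117, 864 and 1016 in ddcc and 924, 964 and 873 in WT. AT4TE09845 had more counts in each ddcc library, and AT4TE42860 had more in each WT library. The level of AT4TE50435 was 54.0 ± 4.42 CPM in ddcc and 56.9 ± 2.78 CPM in WT, a log2 fold change of −0.07 with an SE of 0.07 (edgeR adjusted p 0.469). The groups overlapped. AT4TE18395 had 121, 92 and 99 counts in ddcc and 99, 95 and 80 in WT, with a log2 fold change near 0 (SE 0.13, edgeR adjusted p 0.995). AT4TE10035 had 79, 73 and 102 counts in ddcc and 86, 65 and 71 in WT (log2 fold change 0.01, SE 0.16, edgeR adjusted p 0.982). AT4TE21575 had 161, 109 and 135 counts in ddcc and 100, 101 and 102 in WT (log2 fold change 0.22, SE 0.14, edgeR adjusted p 0.246). In this last element the WT libraries were nearly equal and the ddcc libraries were all above them by count, but not in CPM.

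The 16 elements that did not pass had log2 fold changes between −0.63 and 0.39, and their genotypes overlapped in CPM. Single libraries stood apart in AT4TE88500 and in AT4TE10895, which was named after its values were seen. AT4TE88500 had 77, 79 and 160 counts in ddcc, with replicate 3 the highest, and 102, 73 and 82 in WT. AT4TE10895 had 30, 31 and 84 counts in ddcc, again with replicate 3 the highest, and 42, 26 and 29 in WT. AT4TE34655, with 40, 18 and 32 counts in ddcc and 48, 43 and 31 in WT, had a log2 fold change of −0.63 (edgeR adjusted p 0.101) and passed the threshold when ddcc replicate 1 was left out (edgeR adjusted p 0.0492). A p above the threshold does not show that these elements are transcribed equally.

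Elements called higher and lower partly offset each other in the sum over the chromosome. Summed CPM of chromosome 4 TEs was 427 ± 60.1 in ddcc and 351 ± 15.3 in WT (SD, n = 3 each), a difference of 76.5 CPM, or 42.6 CPM without ddcc replicate 1. The 26 called higher added 194 CPM and the 11 called lower gave −133 CPM. The 21 tested elements without a call gave −2.84 CPM and the 449 untested elements with a count added 18.5 CPM. Of the added CPM, AT4TE09845 accounted for 83.5 and AT4TE03295 for 39.9. Of the CPM lower in ddcc, AT4TE42860 accounted for −85.0, AT4TE10320 for −22.5 and AT4TE44080 for −12.7. Element lengths were not used here, so these values count reads and do not rank elements by level. The 5 elements with the most counts over all libraries were AT4TE50435, AT4TE09845, AT4TE10320, AT4TE42860 and AT4TE21115. Together they took up 49.6% ± 1.11 of chromosome 4 TE counts in ddcc and 66.5% ± 0.699 in WT (SD, n = 3 each). These elements were picked by the same counts that are compared, so the shares are a description and no test is given.

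**Figure D4:**
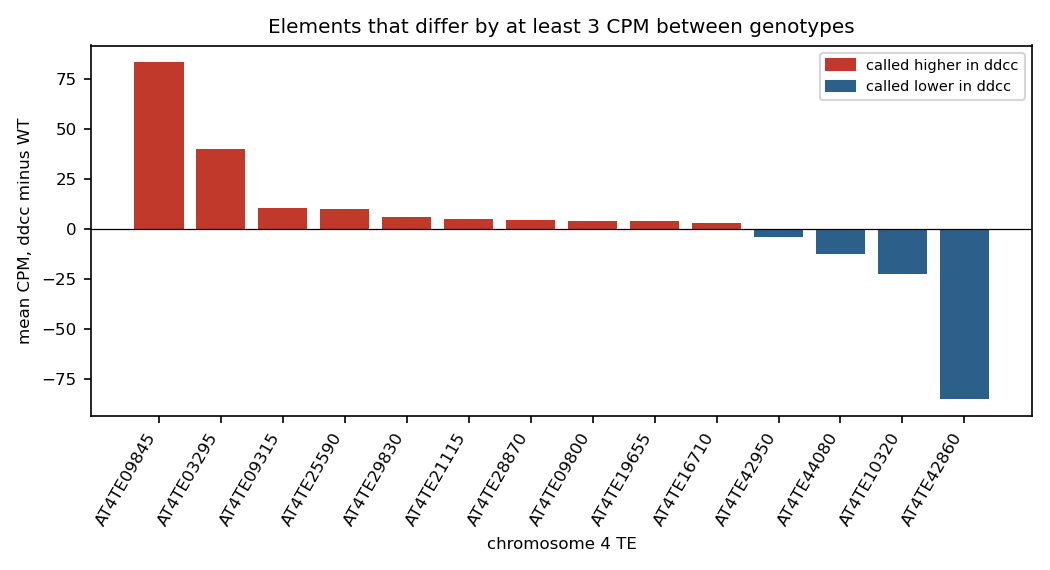
Difference in mean CPM (ddcc minus WT, n = 3 libraries each) of the 14 chromosome 4 TEs that differ by at least 3 CPM, with bars coloured by call. The bars of AT4TE09845 (83.5) and AT4TE42860 (−85.0) are of nearly equal size and opposite sign.

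The 449 elements with a count that were not tested had at most 60 counts over all libraries, with a median of 2. Their counts summed to between 563 and 721 per ddcc library and between 237 and 298 per WT library. In CPM this was 35.1 ± 4.34 in ddcc and 16.6 ± 0.936 in WT, a ratio of 2.11 (SD, n = 3 each). The ddcc libraries lay above the WT libraries, and the exact permutation test on the counts gave p 0.1.

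By identifier number, elements were dense in the lower numbers and sparse in the higher ones. Numbers ran from 10 to 90160, and 4054 of the 4967 elements (81.6%) had numbers up to 45000. Of the 37 called elements, 36 lay there. Beyond it, 6 of 913 elements were tested and AT4TE54750 was the only one called. Gained and otherwise higher elements ran from AT4TE03295 to AT4TE54750 and lower ones from AT4TE10320 to AT4TE44080, with median numbers of 16075 and 21110. The median number of all 4967 elements was 22460, and a difference in position was not tested.

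The elements were cut into 10 windows of 496 or 497 by identifier order. The second window, AT4TE08980 to AT4TE13035, had the most elements with a count in ddcc and in WT. It had 57.0 ± 3.61 elements with a count in ddcc and 25.3 ± 2.31 in WT. Of its 18 tested elements, 8 were higher and 3 were lower, near the shares of 44.8% and 18.97% among all 58. Its summed level was 167 ± 34.6 CPM in ddcc and 77.6 ± 10.6 CPM in WT. Of this, AT4TE09845 held 86.0 CPM in ddcc and 2.50 in WT, and AT4TE10320 held 32.5 and 54.9. The ratio of summed CPM was 2.15 here and largest, at 7.87, in the first window, AT4TE00010 to AT4TE08975. There AT4TE03295 held 41.9 of 49.1 CPM in ddcc and 1.95 of 6.24 CPM in WT. The fourth window, AT4TE16145 to AT4TE19445, had 35.0 ± 1.73 elements with a count in ddcc and 6.67 ± 2.52 in WT, although it held only 2 tested elements. All but 2 of its elements with reads were under the filter on low counts. The third window, AT4TE13040 to AT4TE16140, had 26.7 ± 2.89 in ddcc and 9.0 ± 2.0 in WT.

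The last 3 windows are given next. In the eighth, AT4TE32380 to AT4TE42600, 21.7 ± 0.577 elements had a count in ddcc and 23.0 ± 1.0 in WT, and summed CPM was 13.2 ± 1.05 in ddcc and 12.9 ± 0.964 in WT, while 3 of its 7 tested elements were higher and 0 were lower. In the tenth, AT4TE57630 to AT4TE90160, the numbers were 19.3 ± 1.53 in ddcc and 18.3 ± 5.13 in WT, and neither of its 2 tested elements was called. The ninth, AT4TE42605 to AT4TE57580, was the only window whose ddcc libraries all lay below its WT libraries in summed level, at 74.8 ± 5.31 CPM against 177 ± 3.71 CPM in WT, and it holds AT4TE42860 and AT4TE44080. It still had more elements with a count in ddcc, 27.7 ± 3.06 against 16.0 ± 3.61 in WT. Windows were described and not tested.

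**Figure D5:**
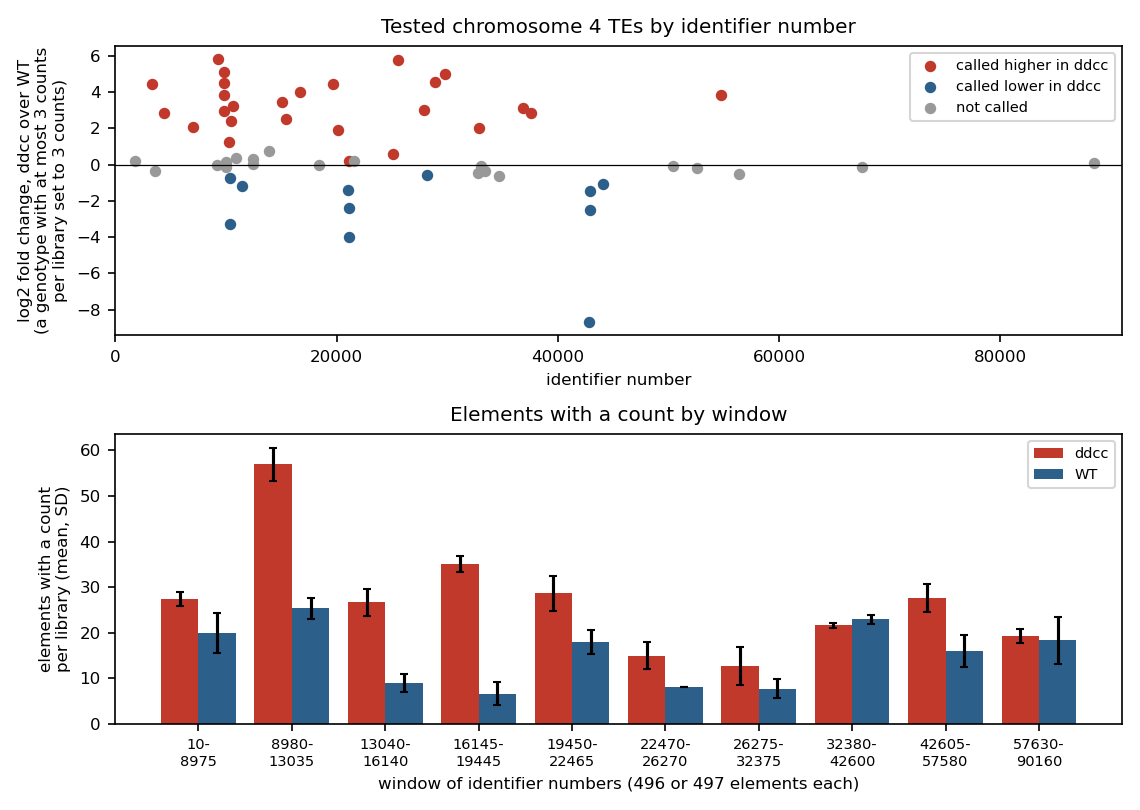
Top, the 58 tested chromosome 4 TEs by identifier number (horizontal) and log2 fold change of ddcc over WT (vertical), where a genotype with at most 3 counts in each library is set to 3 counts. Bottom, elements with a count per library (mean and SD, n = 3) in 10 windows of identifier numbers, where the second window has 57.0 in ddcc and 25.3 in WT.

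Set beside TEs of the other chromosomes, those of chromosome 4 had the smallest ratio of read shares. The ratio of ddcc to WT was 1.25 on chromosome 4 and 3.62, 2.62, 2.28 and 1.83 on chromosomes 1, 2, 3 and 5. Chromosome 4 TEs therefore made up 11.8%, 10.03% and 8.91% of all TE counts in the ddcc libraries and 18.4%, 16.8% and 19.6% in the WT libraries. Every ddcc library was below every WT library, with an exact permutation p of 0.1, the smallest possible here. Without AT4TE42860 the shares were 10.2% ± 1.45 in ddcc and 14.5% ± 1.08 in WT (exact permutation p 0.1). The ratio of read shares on chromosome 4 was then 1.65, against 1.83 on chromosome 5. On chromosome 3 the WT share of all counts varied most between libraries, at 0.0586% ± 0.0200 (SD, n = 3). The number of elements with a count had a ratio of ddcc to WT of 1.78 on chromosome 4 and 1.78, 2.11, 1.96 and 1.77 on chromosomes 1, 2, 3 and 5.

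Among tested elements, 26 of 58 on chromosome 4 were higher, against 60.2% of the 314 tested TEs of chromosomes 1, 2, 3 and 5. By chromosome, the shares higher were 44.8% on chromosome 4 and 61.6%, 77.5%, 58.6% and 45.8% on chromosomes 1, 2, 3 and 5, so that chromosomes 4 and 5 were close. The 11 lower elements of 58 compare with 4.14% of those 314. By chromosome, the shares lower were 18.97% on chromosome 4 and 2.74%, 0%, 3.45% and 9.64% on chromosomes 1, 2, 3 and 5. These shares are given as a description, since elements in a stretch are not independent and the filter acts on each of them.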

How the data were processed

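The authors deposited raw counts of reads per gene and TE. The submitters' processing notes name Trim Galore 0.6.0, cutadapt 1.15, STAR 2.7.0f and the build TAIR10, while the counting program, strand setting and handling of multi-mapping reads are not given in the sources used here. Per the labels' protocols, 500 ng of total RNA went into polyA selection.

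All genes and TEs were fitted together in edgeR 4.0.16 (R 4.3.3): filterByExpr with a minimum count of 10, TMM scaling, the quasi-likelihood F test with genotype as the only term, and Benjamini-Hochberg adjustment over all tested features, with calls at 0.05. The steps were tested on simulated data. CPM used TMM-scaled totals of tested features. SE was taken as the size of the log2 fold change over the root of F. Fitted fold changes of elements near 0 counts in 1 genotype depend on a prior count. For gained and lost elements, bounds against 3 counts per library, or count ratios with exact 95% intervals, are given instead. AT4TE42860 is given by its fitted fold change, because 1 ddcc library held more than 3 counts. Bounds and ratios of gained elements and the summed CPM were also computed without each library, a choice made after seeing the data. PCR copies cannot be told from separate molecules without molecular identifiers, so intervals and floors hold counting error alone. Replicate pairs differed by more than sampling noise (chi-square over its degrees of freedom was 5.33 to 7.65 in ddcc and 3.32 to 4.25 in WT). All 6 libraries were counted as samples, but this spread may be technical and does not show that they came from separate plants.

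Elements were named by a rule. Candidates were called elements with a mean count of 20 or more whose genotypes did not overlap in CPM. Up to 12 with the largest changes were taken in each direction, which gave 12 of 14 higher and all 7 lower elements. The 10 elements expressed in both genotypes with the most counts, members of groups of 3 or more neighbouring calls, and the mutated genes were also named. Other elements were named after their values were seen. The members, lists and rules were chosen with earlier results of these data known. Alternatives were other scalings, filters, thresholds and dispersion estimates, DESeq2 1.42.0, a replicate block and leaving out each library. TE coordinates, families and sequences, and a table of moss batch labels, were not used here.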

Additional observations from a re-analysis of the deposited data

How the results depend on the processing

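Counts of 26 elements higher, 11 lower, 19 gained and 3 lost did not change with library totals, TMM computed on genes alone or size factors by median of ratios. The filter on low counts moved them most. With no filter beyond 1 count they were 67, 20, 60 and 12, and 36 of the 37 calls were kept (AT4TE11410 was not). With a mean of at least 50 counts they were 7, 4, 3 and 0 under edgeR, the last because no lost element has so many counts. DESeq2 gave 24 higher and 10 lower. Leaving out 1 library gave 26 to 29 higher and 9 to 15 lower elements, and the number lost ran from 3 to 7. It was 5 without ddcc replicate 1, 5 without ddcc replicate 2 and 7 without ddcc replicate 3. No call turned its direction in any of these fits. A largest step of 10 gave 3 groups of neighbours in place of 5. As a share of TE counts of all chromosomes the difference turned to −8.04 percentage points, or −4.25 without AT4TE42860.

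Equal replicate numbers did not pair the libraries: the correlations of their deviations were −0.104, −0.0775 and 0.0262, and not every library correlated best with its own number. With the replicate block 24 elements were higher, 10 lower, 19 gained and 3 lost, and the calls of AT4TE11410, AT4TE21115 and AT4TE25100 were lost. Permutation p-values cannot pass 0.05 in this design and say nothing about stability. Depth limits what can be said of the 449 elements with too few reads to test.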

Other observations

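Further neighbours moved together below the filter on low counts, all chosen after their values were seen and given with no test. The 6 entries from AT4TE44390 to AT4TE44415 had together 14, 22 and 11 counts in ddcc and 0 in each WT library, and each of the 6 had a count in at least 1 ddcc library. The 8 entries from AT4TE18670 to AT4TE18705, 5 of them with a count, had 16, 23 and 19 counts in ddcc and 0 in each WT library. In the other direction, the 3 entries from AT4TE34690 to AT4TE34700 had 1, 0 and 0 counts in ddcc and 15, 10 and 8 in WT, and the 3 from AT4TE15355 to AT4TE15365 had none in ddcc and 8, 5 and 7 in WT.

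Calls in opposite directions also stood close together. From AT4TE10285 to AT4TE10350 there were 7 entries, of which AT4TE10285 was higher in ddcc, AT4TE10320 and AT4TE10335 were lower, and the untested AT4TE10345 had 39, 15 and 2 counts in ddcc and 0, 3 and 1 in WT.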
